A study of Caenorhabditis elegans with 2 samples.

Results

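The regions described here are those ranked next below the reproducible peaks of a ChIP-seq experiment and lying at protein-coding gene starts in Caenorhabditis elegans. ChIP-seq precipitates a protein with the DNA it sits on and sequences that DNA. From the list of 30000 peaks and background regions made from both replicates pooled, regions with a summit within 100 bp of a peak that passed the irreproducible discovery rate (IDR) threshold were dropped, which left 28470. These were ordered by the authors' signal value, and as many were taken from the top as there were IDR peaks. Among them, 543 had a summit between 500 bp before and 100 bp after the start of a protein-coding gene (35.0%, 95% Wilson interval 32.7 to 37.4%), and the other 1007 lay elsewhere. They lay at the starts of 654 of the 19971 protein-coding genes on the 6 chromosomes (3.27%). The regions were chosen by their pooled signal and by the absence of an IDR summit nearby, so both are given below as description, without a test.

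The animals were of strain OP662, genotype unc-119(tm4063) III with the insertion wgIs662, which carries the gene B0261.1 with a GFP-FLAG tag at its C-terminal end. The annotation lists B0261.1 as vep-1, a protein with a Myb-like domain. Whole young adults, labelled as pooled male and female, were collected 64 hours after larvae hatched from bleached eggs had been synchronised by starvation, and the description names an antibody against GFP while the antibody field names B0261.1. There was 1 group of 2 biological replicates, numbered 1 and 3, and no comparison of conditions. All animals carried the same transgene, and control libraries were not analysed here. The labels name no promoter for the tagged gene, and whole animals mix all tissues.

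As background, RNA polymerase II starts transcription at the promoters of protein-coding genes, which in this worm often hold clusters of sites for many transcription factors. Many worm messenger RNAs receive a spliced leader, so the annotated gene start is often the splice site of the leader rather than the first transcribed base. Neighbouring genes can point away from each other and share 1 promoter region. IDR compares the ranks of peaks between replicates, and regions that rank low or unevenly fall below its threshold.

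The sequences at the strongest of these regions show what the summits sit on. Printed are the summit and 75 bases on each side for the 8 regions of highest pooled signal on II, III, IV, V and X, read from the RefSeq assembly WBcel235 (ce11) along the strand of the nearest gene. Capitals mark matches on either strand to 6 short sequences: GTTCGANNC, the letters of the B box of tRNA genes; TATAAA, known from TATA boxes; GAGAGA, a repeat common in promoters; CACGTG, the E box; GATAAG, bound by GATA factors; and CGGCCA. They also mark 5 sequences of 6 bases described with the base composition below.
elmd-1, chrIII:3389641-3389791, plus strand: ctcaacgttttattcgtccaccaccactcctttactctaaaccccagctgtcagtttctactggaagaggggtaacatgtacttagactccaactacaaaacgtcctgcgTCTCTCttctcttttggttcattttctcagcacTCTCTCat
mig-5, chrII:8185115-8185265, minus strand: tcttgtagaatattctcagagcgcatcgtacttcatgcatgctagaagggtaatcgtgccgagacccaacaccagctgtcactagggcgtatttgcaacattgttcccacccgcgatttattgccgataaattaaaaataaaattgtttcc
mks-1, chrIII:3186256-3186406, plus strand: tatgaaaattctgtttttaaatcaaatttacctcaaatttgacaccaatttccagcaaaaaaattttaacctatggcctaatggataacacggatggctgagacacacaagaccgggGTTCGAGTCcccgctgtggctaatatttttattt
F09G2.2, chrV:7196536-7196686, plus strand: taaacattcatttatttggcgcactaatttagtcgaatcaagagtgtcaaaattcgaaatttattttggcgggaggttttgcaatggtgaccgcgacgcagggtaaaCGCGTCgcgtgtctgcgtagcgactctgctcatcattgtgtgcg
dpy-23, chrX:4389032-4389182, plus strand: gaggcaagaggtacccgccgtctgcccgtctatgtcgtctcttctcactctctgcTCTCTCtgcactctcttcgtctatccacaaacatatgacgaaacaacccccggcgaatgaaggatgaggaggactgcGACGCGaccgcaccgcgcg
trap-2, chrX:768196-768346, minus strand: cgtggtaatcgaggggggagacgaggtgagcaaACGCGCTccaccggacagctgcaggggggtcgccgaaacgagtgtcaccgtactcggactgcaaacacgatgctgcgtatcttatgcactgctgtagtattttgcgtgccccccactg
nhr-47, chrV:5505196-5505346, plus strand: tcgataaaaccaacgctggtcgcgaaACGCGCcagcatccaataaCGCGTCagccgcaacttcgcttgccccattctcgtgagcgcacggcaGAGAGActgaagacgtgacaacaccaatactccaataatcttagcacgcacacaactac
epc-1, chrIII:12608702-12608852, minus strand: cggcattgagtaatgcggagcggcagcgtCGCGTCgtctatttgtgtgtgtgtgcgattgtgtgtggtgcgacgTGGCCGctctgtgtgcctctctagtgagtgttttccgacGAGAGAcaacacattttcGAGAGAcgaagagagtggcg

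The region upstream of elmd-1 held 2 matches to GAGAGA on the opposite strand and 44.4% G and C. The stretch upstream of mig-5, which shares its region with the chaperonin gene cct-1, held none of the 11 sequences. The summit inside mks-1, a homolog of a gene of the human ciliary disorder Meckel syndrome, lay 51 bp past the start. Its sequence held a B box match, with no annotated tRNA gene within 100 bp of the summit. The region of mks-1 had 36.4% G and C, the lowest of the 8. Those of trap-2, dpy-23, epc-1 and nhr-47 were richest, with 59.6, 58.3, 55.6 and 53.0% G and C. Both dpy-23 and epc-1, with F09G2.2 and nhr-47, held CGCGTC on one strand or the other.

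The pooled signal of the 543 regions ran from 98.3 to 875 with a median of 124. For the 322 IDR peaks in the same windows, the separate IDR list gave 178.95 to 7893 with a median of 266. The signal is the authors' own, has no stated normalisation and orders regions only within a list. These ranges, from different lists, are therefore not compared. A single region, that of elmd-1, stood far above the others, and the next had a signal of 249.9. The authors' −log10 q-value was 3.86 for all 543, the highest value in the pooled list, and for 39.2% of the 543 promoter regions ranked just below them. That value therefore did not separate the regions among themselves. The 4 weakest regions, at mbk-1, T24H10.1, F44E2.8 and eif-2Bdelta, had signals from 98.3 to 98.4. The first 4 promoter regions below the limit, at Y75B12B.1, F48A11.4, fbxa-140 and tmbi-4, had signals from 98.1 to 98.3, so the limit falls in a continuous run of values.

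Gene starts were most common among the regions ranked directly below the IDR peaks. With the list divided into sets of that size, the share at promoters was 35.0% in the first, 32.5% in the next, 26.2% in the one after that and 24.8% in the fourth. From rank 17051 on it lay between 11.9 and 13.7%. Over all the ordered regions it was 17.8%, and among the IDR peaks it was 20.8%. The Wilson interval of the first set (32.7 to 37.4%) did not overlap that of the IDR peaks (18.8 to 22.9%) and did overlap that of the next set (30.2 to 34.8%). These intervals cover the counting of regions only. Applied to the list of each replicate by itself, the same rule gave 370 regions at promoters in replicate 1 (23.9%) and 476 in replicate 3 (30.7%).

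**Figure D1:**
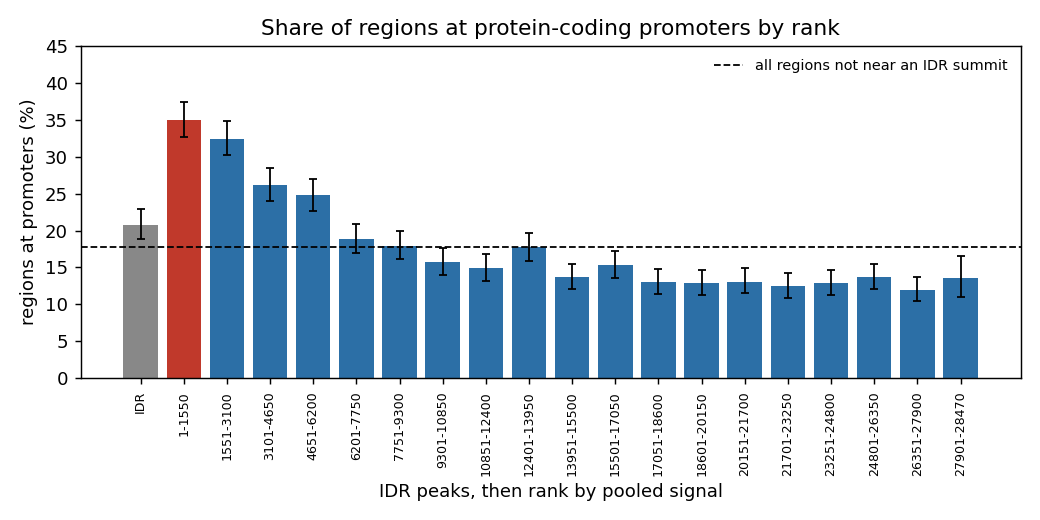
Share of regions at protein-coding promoters (percent, y axis) for the IDR peaks (grey), the next-ranked set (red) and each lower set of the same size by pooled signal (blue, of which the last holds 570), with 95% Wilson intervals. The share is 20.8% for IDR peaks, 35.0% in the next set and falls to 11.9% in a set near the end of the list. The dashed line is 17.8%.

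How many regions were found again in the replicates' own lists depended on the distance allowed, and more were found in replicate 3 than in replicate 1. A summit within 100 bp was present in the list of replicate 1 for 410 of the 543 regions (75.5%, Wilson interval 71.7 to 78.9%) and in that of replicate 3 for 523 (96.3%, interval 94.4 to 97.6%). The mean over the replicates was 85.9% ± 14.7 (SD, n = 2). Over all 28470 regions the shares were 28.2% and 59.1%. Both lists held 399 regions (73.5%), against 17.2% of all 28470. Within 25 bp the shares of the 543 were 28.0% in replicate 1, 61.3% in replicate 3 and 18.2% in both. Another 124 were in replicate 3 alone, 11 in replicate 1 alone and 9 in neither list. The pooled list was made from both replicates' reads, so these shares are not independent of the choice of regions. The list of replicate 1 was shorter (23931 regions, median signal 15.5, against 30000 and 32.2 in replicate 3), and its part in the difference was not tested.

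The other groups were set beside these shares as description. Of the IDR peaks at promoters 93.2% were found in replicate 1 and 96.9% in replicate 3. For the promoter regions ranked just below, the shares were 52.5% and 90.8%, and 46.2% were in both lists. The next-ranked regions away from promoters had 73.3% in replicate 1, 91.9% in replicate 3 and 68.2% in both. With the 543 divided by signal into 4 groups of 135 or 136, the share in both lists was 78.7, 82.4, 72.8 and 60.0% from the highest signals to the lowest.

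Being found did not mean being ranked high. The regions found in replicate 1 had a median rank of 3665 there and those found in replicate 3 a median rank of 2527. Counting down each replicate's list to the number of IDR peaks, 10 of 543 were included in replicate 1 (1.84%), 17 in replicate 3 (3.13%) and 2 in both (0.368%). For IDR peaks at promoters these shares were 47.2, 82.6 and 43.5%, and for the next-ranked regions away from promoters 6.85, 4.47 and 1.99%. IDR selects peaks by their ranks in both replicates, and the 543 were chosen for lacking an IDR summit within 100 bp. The contrast with IDR peaks was therefore largely set by the choice of regions. Ranks in replicate 1 spread widely, with quartiles of 2413 and 7333, against 2068 and 3153 in replicate 3. Of the 543, 48.1% were among the 5000 highest regions of replicate 1 and 93.6% among those of replicate 3. Some of the regions high in replicate 3 had no summit within 100 bp in replicate 1. Among them were those at nhr-47, pfd-6, T26A8.4, cel-1 and T28B8.1, with ranks in replicate 3 from 1341 to 1533. The nhr-47 region also serves the chaperone gene dnj-19, cel-1 encodes the enzyme that caps messenger RNA, and pfd-6 encodes a prefoldin subunit. These 5 were picked out with their values known.

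**Figure D2:**
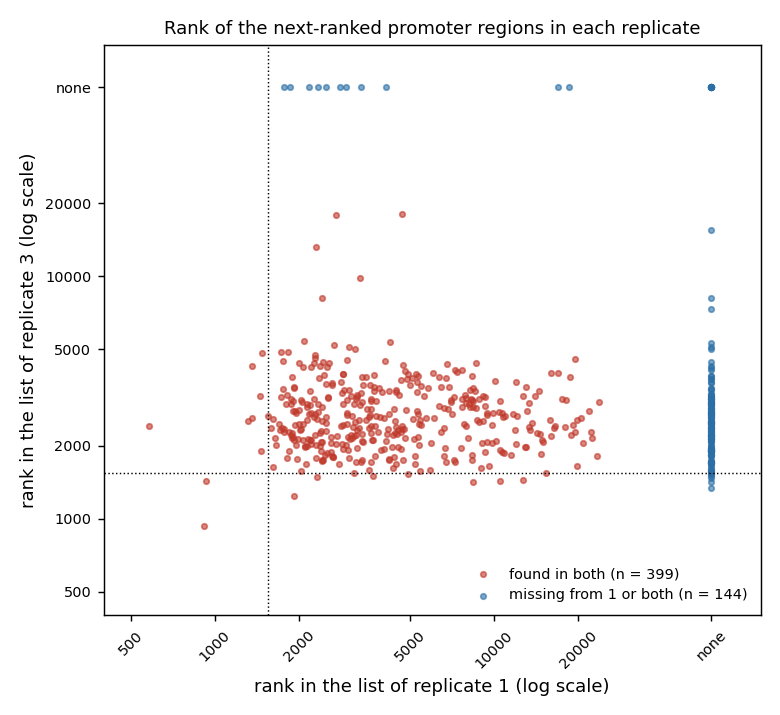
Rank of each of the 543 regions in the list of replicate 1 (x axis) and of replicate 3 (y axis), both on log scales, with regions that have no summit within 100 bp placed at none. Dotted lines mark the rank equal to the number of IDR peaks. Inside both lie 2 regions, while ranks in replicate 3 gather around the median of 2527 and those in replicate 1 spread up to 23770.

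The 2 regions high in both replicates lay beside IDR peaks. At T05A8.8, annotated as a Mediator complex subunit, the summit on II at 2736332 had signals of 139 in the pooled list, 124.2 in replicate 1 and 313 in replicate 3, with ranks of 915 and 937. It lay 217 bp from an IDR summit and within 100 bp of a tRNA gene. At K02C4.2, annotated as a DUF19 domain protein, the summit on II at 8075656 had 151.2, 121.8 and 175.8, with ranks of 930 and 1429. It lay 224 bp from an IDR summit and within 100 bp of a snoRNA gene. The elmd-1 region on III, with its summit at 3389716, had 875 in the pooled list, 235 in replicate 1 (rank 582) and 106 in replicate 3 (rank 2419). It lay 217 bp from an IDR summit and overlapped that peak's region.

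Such neighbours were few. Of the 543 regions, 19 had an IDR summit within 250 bp (3.50%) and 18 overlapped an IDR region, against 135 (13.4%) and 147 of the 1007 next-ranked regions away from promoters. The median distance to the nearest IDR summit was 23946 bp. A gene of a tRNA, tRNA pseudogene, snoRNA, snRNA or rRNA lay within 100 bp of 10 summits (1.84%), against 68 of the 322 IDR peaks at promoters (21.1%) and 66 of the 1007 next-ranked regions elsewhere (6.55%). The 10 were 1 at a tRNA gene, 5 at snoRNA genes and 4 at snRNA genes. Without them 75.4% of the remaining 533 were found in replicate 1 and 96.2% in replicate 3, a setting added once the results were known. An unclassified noncoding RNA gene lay within 100 bp of 42 summits (7.73%) and of 70 IDR peaks at promoters (21.7%). Such neighbours were also few among the promoter regions ranked just below. There, 21 had an IDR summit within 250 bp (3.87%) and 21 overlapped an IDR region. Within 100 bp, 6 had a gene of the 5 small RNA classes named above (1.10%) and 31 an unclassified one (5.71%).

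Among the regions with the best ranks in both replicates, all but T05A8.8 and K02C4.2 lay far from any IDR peak, the nearest at 12374 bp. After T05A8.8 and K02C4.2, these were at mpc-2, a mitochondrial pyruvate carrier, with signals of 167.9 (pooled), 49.9 (replicate 1) and 151.2 (replicate 3). The region of famh-136 had 179, 43.6 and 141, and that of F09G2.2, near a snoRNA gene, 186, 42.8 and 131. Next came F55A11.1, which shares its region with the vesicle fusion gene syx-5 (171, 56.2 and 131), and scpr-1 with gpap-1 (249.9, 41.3 and 212). The region of gsp-2, a catalytic subunit of protein phosphatase 1, had 167, 40.2 and 141. That of K05C4.7 had 139, 40.4 and 125, and that of vha-12, a subunit of the proton pump of organelles, had 156, 48.0 and 124. Each of these 8 stood between rank 1248 and 2017 in both lists. The scale of signal differs between lists, and values are not compared across them.

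The 20 regions of highest pooled signal were spread over all 6 chromosomes and 8 of them served gene pairs. These pairs were scpr-1 with gpap-1, mig-5 with cct-1, spe-48 with spgt-1, F09G2.2 with attf-2, trap-2 with ile-2, nhr-47 with dnj-19, T10B5.4 with cct-7 and cel-1 with npp-14. The products of cct-1 and cct-7 are subunits of the cytosolic chaperonin, trap-2 encodes a subunit of the translocon-associated complex of the endoplasmic reticulum, and npp-14 encodes a nuclear pore protein. The single-gene regions lay at elmd-1, mks-1, dpy-23, epc-1, famh-136, bcat-1, rpac-19, C02B8.6, ceh-39, unc-112, set-4 and catp-8. Here dpy-23 encodes a subunit of the clathrin adaptor AP-2, epc-1 an enhancer of polycomb homolog, bcat-1 a branched-chain amino acid aminotransferase and set-4 a histone methyltransferase. Of the 20, 5 had no summit within 100 bp in replicate 1: those at nhr-47, bcat-1, rpac-19, ceh-39 and cel-1. All 20 had one in replicate 3. The 9 regions found in neither replicate were at C09E7.7, rab-14, mrpl-41, F23A7.4, cogc-2, T02E1.2, zhit-1, F58D5.9 and tbc-6, with pooled signals from 100.7 to 150.8.

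The median summit position was -167 bp from the nearest annotated start (95% interval of the median from the binomial distribution -182 to -149). For 465 of 543 regions (85.6%) the summit was upstream of the nearest start. The share was 93.5% for IDR peaks at promoters and 82.9% for the promoter regions ranked just below. The window reaches 500 bp upstream and 100 bp downstream, so evenly spread summits would also lie mostly upstream. The fullest bin of 50 bp, which begins at -150 bp, held 80 regions (14.7%). The median was -222 bp for IDR peaks at promoters (interval -246 to -199) and -154 bp for the promoter regions ranked just below (interval -176 to -142). The interval of the 543 did not overlap that of the IDR peaks and overlapped that of the lower regions. From the start to 100 bp downstream lay 78 of the 543 summits (14.4%), against 21 of 322 IDR peaks (6.52%). With the rule applied to each replicate's own list the medians were -156.5 bp (replicate 1) and -168.5 bp (replicate 3). The window bounds all these values.

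**Figure D3:**
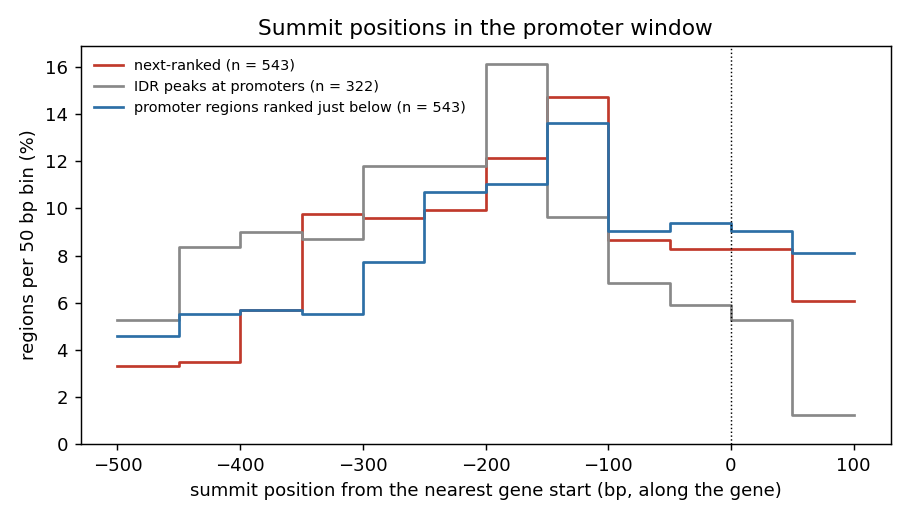
Summit position from the nearest gene start (bp along the gene, x axis; the start is at the dotted line) against the percent of regions in each 50 bp bin, for the 543 next-ranked regions (red), the 322 IDR peaks at promoters (grey) and the 543 promoter regions ranked just below (blue). The red curve is highest at 14.7% just upstream of -100 bp and holds 14.4% at or past the start.

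By annotation, 442 of the 543 summits lay outside protein-coding genes (81.4%), 55 in an intron or untranslated part (10.1%) and 46 in coding sequence (8.47%). At coding sequence the share was 3.11% for IDR peaks at promoters and 11.6% for the promoter regions ranked just below. A gene pair transcribed in opposite directions from the region was served by 111 of the 543 (20.4%). This was close to the 18.3% of IDR peaks at promoters and above the 10.6% of all 4531 lower-ranked promoter regions. Another 4 of the 543 lay in the windows of genes on the same strand. Orientation was not counted for the promoter regions ranked just below. Of those, 18.4% lay in the windows of 2 or more genes, against 21.2% of the 543 and 18.6% of IDR peaks at promoters. The regions on II at 14349725 and on III at 2528837 each lay in the windows of 3 genes, lin-7 with Y54G11A.17 and elof-1, and rbc-2 with Y54F10AM.15 and ndua-8.

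Nearly every gene had a single region. Of the 654 genes, 648 had 1 and 6 had 2, and in each of the 6 the regions overlapped as 1 site. These were taf-4, a subunit of the general transcription factor TFIID, dock-11, F54C9.9, K10B2.4, F46B6.6 and gst-1. An IDR peak lay in the window of 17 of the 654 genes, and the other 637 genes had none. Among the 17 were elmd-1, hsp-90, cyc-2.1, rpl-38, mcm-10 and mog-4. Of all 19971 protein-coding genes, 367 had an IDR peak in the window (1.84%), so most genes lacked one in either case. The rule had also removed regions close to IDR peaks, so the choice of regions limits this overlap, and it was not tested. By chromosome the share of protein-coding genes with a region ran from 2.20% on V (110 of 4995 genes, Wilson interval 1.83 to 2.65%) to 4.84% on III (128 of 2642, interval 4.09 to 5.73%). On X it was 3.81%. For IDR peaks V was also lowest, at 1.36%, and III highest, at 2.38%.

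Of the 24 lists of genes, 11 had a Wilson interval above the 3.27% of all protein-coding genes, 2 had one below it and 11 had one that included it. The lists were made from gene symbols, so genes named otherwise are missing from them. A gene was counted where a summit lay in its window, also where another gene's start was nearer. Examples are mrpl-18 (phka-1 nearer), atp-5 (lmtr-3), tbb-1 (rib-2), rab-18 (kbp-4), col-71 (Y49F6B.2) and rps-15A (polh-1). The lists were described by counts alone and not tested against each other, many hold few genes, and 558 of the 654 genes were in none. The intervals cover the counting of genes only and are not adjusted for the number of lists. They treat genes that share a region, such as rps-10 and rpl-24, as separate, so their place beside the share of all genes is not a test. The shares were largest for the respiratory chain and ATP synthase, which make ATP in mitochondria (8 of 42 genes, 19.0%, Wilson interval 9.98 to 33.3%), and for mitochondrial ribosomal proteins (11 of 71, 15.5%, interval 8.88 to 25.7%). Cytosolic ribosomal proteins had 12 of 78 (15.4%, interval 9.03 to 24.99%), the proteasome 5 of 33 (15.2%), the proton pump of organelles (V-ATPase) 3 of 20 (15.0%) and translation factors 6 of 42 (14.3%). The intervals lay below for chemoreceptors, with 3 of 1288 (0.233%, interval 0.0792 to 0.683%), and for collagens of the cuticle, with 1 of 180 (0.556%, interval 0.0981 to 3.08%). Those of nuclear hormone receptors (4 of 269, 0.580 to 3.76%), major sperm proteins (0 of 31, up to 11.0%) and vitellogenins (0 of 6, up to 39.0%) included the share of all genes. Of 1288 chemoreceptors, 47 had any region of the pooled list in the window. Among the 4991 genes with any region 13.1% had a next-ranked one. On that base the share was 6.38% for chemoreceptors, 18.5% for cytosolic ribosomal proteins (of 65) and 26.8% for mitochondrial ones (of 41). It was 19.4% for F-box proteins (of 31) and 16.7% for homeobox genes (of 12), which were below the share on the base of all genes. Above it on the base of all genes and below it on this one were ubiquitin conjugation with 10.7%, actin and tubulin with 11.1% and RNA polymerase subunits with 12.5%.

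**Figure D4:**
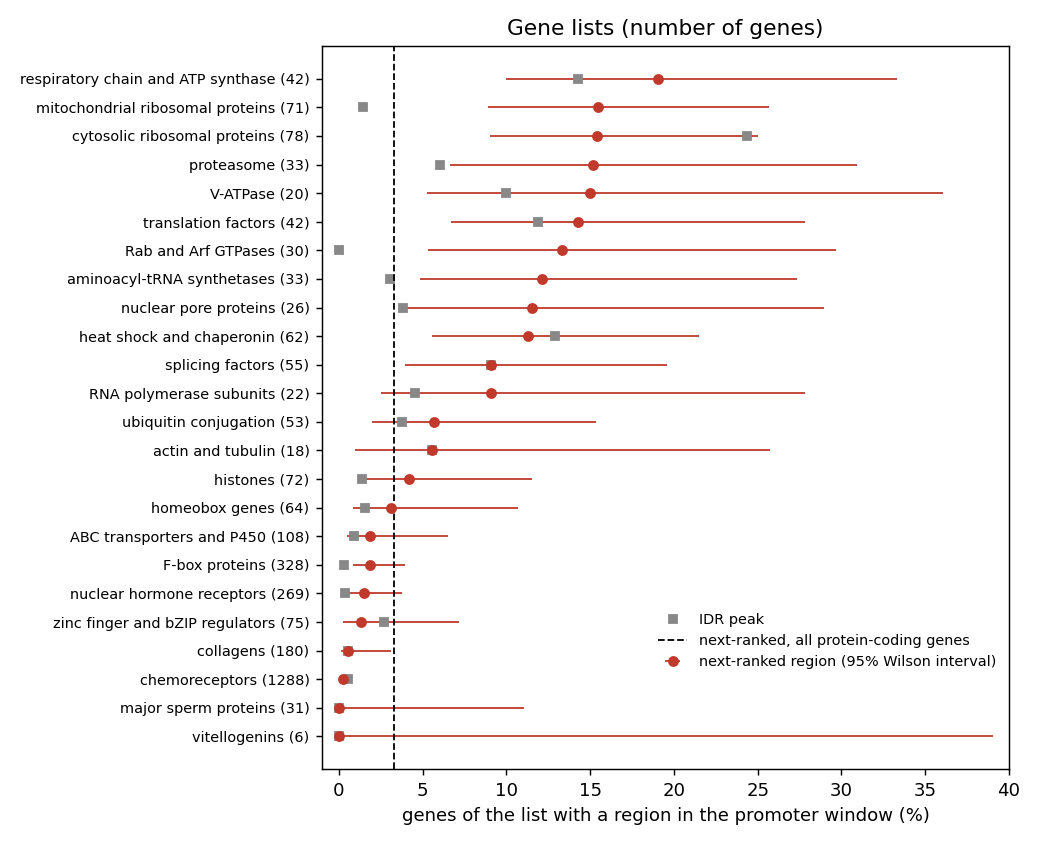
Percent of the genes of each list with a next-ranked region in the promoter window (red points, 95% Wilson intervals) and with an IDR peak there (grey squares); list sizes are in parentheses and the dashed line is the 3.27% of all protein-coding genes. Mitochondrial ribosomal proteins have 15.5% with a next-ranked region and 1.41% with an IDR peak, while cytosolic ones have 15.4% and 24.4%.

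Next-ranked regions lay at similar shares of the cytosolic and mitochondrial ribosomal proteins. An IDR peak lay at 19 of the 78 cytosolic genes (24.4%), with rpl-38 in both counts, and at 1 of the 71 mitochondrial genes (1.41%), against 1.84% of all protein-coding genes. The strongest cytosolic regions were at rps-16 (signals 172 pooled, 20.3 in replicate 1 and 128 in replicate 3) and rpl-29 (162, 23.6 and 117). Those of rpl-7A (160.2) and rpl-41.2 (154) had no summit within 100 bp in replicate 1. A single region was shared by rps-10 and rpl-24 (118). In the mitochondrial list the strongest were at mrps-7 (169.7, 34.0 and 144), mrps-35 (152, 33.2 and 104) and mrpl-18 (140.3, 25.1 and 97.5). That of mrpl-41 (119) had a summit in neither replicate. In 8 of the 11 mitochondrial regions a summit was found in both replicates. Outside the list by its symbol, T09F3.4, annotated as mitochondrial ribosomal protein L22, had 157.9, 30.7 and 123.

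In the list of the respiratory chain and ATP synthase, the strongest region had its summit at -291 bp from the start of ucr-2.1, a subunit of complex III (signals 164 pooled, 25.1 in replicate 1 and 142 in replicate 3). That summit was nearer to the start of nmat-1, at -95 bp. The region of sdha-1, the flavoprotein of succinate dehydrogenase, had 143, 39.5 and 105 and lay within 100 bp of a snoRNA gene. Those of atp-5 (136, 11.9 and 149) and of cyc-2.1, a cytochrome c gene (133 pooled, 146 in replicate 3), followed, and cyc-2.1 had no summit within 100 bp in replicate 1 and an IDR summit at 218 bp. The other 4 genes of the list were cox-6C, cyc-1, atp-3 and nuo-5, with pooled signals of 126 to 113. All 8 were found in replicate 3 and 7 in replicate 1. Other annotated subunits with symbols outside the list had regions at asg-2 of ATP synthase (155), ndub-8 of complex I (149), F36A2.7 of cytochrome c oxidase (139) and ndua-8 of complex I (128), by pooled signal.

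Translation factors, which start and extend protein synthesis, had regions at eef-1B.1 (173), eef-1G (163), eif-3.B (160.2), eif-3.E (104.9), ife-2 (100.7) and eif-2Bdelta (98.3), with pooled signals in parentheses here and for the lists that follow. Those of eif-3.E and ife-2 lacked a summit within 100 bp in replicate 1. Of 33 aminoacyl-tRNA synthetases, which charge tRNAs, 4 had a region (12.1%): mars-1 (154), aars-1 (113), vars-1 (111) and fars-3 (111). The region of vars-1 ranked 1471 in replicate 1 and 4810 in replicate 3, and mars-1 and aars-1 were not found in replicate 1. A further region lay at K03B4.1, annotated as a seryl-tRNA synthetase and outside the list (128). Of 22 genes for RNA polymerase subunits 2 had one (9.09%). The Wilson interval, 2.53 to 27.8%, includes the 3.27% of all protein-coding genes. The 2 were rpac-19, a subunit shared by polymerases I and III (178), and rpc-2 of polymerase III (117). Both were found in replicate 3 and not in replicate 1.

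Chaperones and protein turnover were represented by 7 of 62 heat shock and chaperonin genes (11.3%) and by the proteasome. Regions lay at cct-1 (192), dnj-19 (184), cct-7 (175) and hsp-90 (144), and hsp-90 also had an IDR summit at 201 bp. The small heat shock gene hsp-16.20 had a region of 122 with its summit within 100 bp of an snRNA gene, at rank 4677 in replicate 1 and 17982 in replicate 3. In the proteasome, regions lay at rpn-9 (129), rpn-10 (124.5), pas-6 (123) and pbs-3 (113), and at rpn-2 (99.8). Of these, rpn-10 and rpn-2 were found in replicate 3 alone. In the ubiquitin list, 3 of 53 genes had a region: cul-4 (132), uba-1 (126) and ubc-3 (109).

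Splicing factors had regions at 5 of 55 genes (9.09%), at snrp-40.1 (153), snrp-3 (140.1), rsp-6 (130.02), lsm-8 (118) and lsm-6 (107), and IDR peaks at 5 others. Of 30 Rab and Arf GTPases, which direct membrane traffic, 4 in the list had a region (13.3%): rab-18 (156), rab-7 (139), rab-14 (120.2) and sar-1 (109). Another lay at unc-108, annotated as Rab-2 and outside the list (122). Regions at sar-1 and unc-108 had a summit in replicate 1 and those at the other 3 did not. The V-ATPase genes were vha-12 (156), vha-20 (144) and vha-8 (103), all found in both replicates. Nuclear pore genes were npp-14 (173), npp-3 (145) and npp-6 (136), and the histone genes his-24 (157) and the pair his-67 and his-68, which share 1 region (131). The remaining lists gave tbb-1 for tubulin (154), col-71 for collagens (152), ztf-9 (119), ceh-39 (176) and ceh-38 (157), mrp-5 (110.2) and haf-9 (103.8), with nhr-47 (184), nhr-41 (124), nhr-32 (113) and nhr-35 (109) among nuclear hormone receptors. The 6 regions of the F-box list were led by fbxb-85 (167), fbxc-44 (132), fbxc-45 (124) and fbxl-1 (115). Among regions at F-box genes outside the list were K02A6.3 (134) and Y32B12B.2 (129), and the chemoreceptors were sru-45 (149), srd-66 (122) and srw-95 (116).

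Counts by words in the annotated product, chosen after the lists were seen, were added as description. Of 300 genes whose product names mitochondria, 37 had a next-ranked region (12.3%) and 18 an IDR peak (6.0%). Of 164 genes naming ubiquitin 12 had one (7.32%), and of 75 naming the Golgi, vesicles or traffic 8 (10.7%). Kinases were near the share of all genes, with 20 of 568 (3.52%). Genes whose product is uncharacterised were below it, with 24 of 1871 (1.28%).

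The summits sat on a narrow peak of G and C. Within 50 bp of the summit the 543 regions held 44.7% G and C, and within 100 bp 41.0%. In bins of 25 bp the share was 46.8% just upstream of the summit, 32.7% in the bin at -138 bp and 36.2% at the upstream edge of the profile, in the bin at -488 bp. Within 50 bp it was 47.6% at IDR peaks at promoters, 41.7% in the promoter regions ranked just below, 38.2% in all lower-ranked promoter regions and 42.5% in the next-ranked regions away from promoters. The dinucleotide CG occurred 6.38 times per window, or 1.28 times as often as the C and G of each window would give, against 4.09 times and 1.12 in all lower-ranked promoter regions. At IDR peaks at promoters the values were 6.97 and 1.23, and in the promoter regions ranked just below 5.19 and 1.20. In the next-ranked regions away from promoters they were 4.88 and 1.09. No test was made on these shares.

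**Figure D5:**
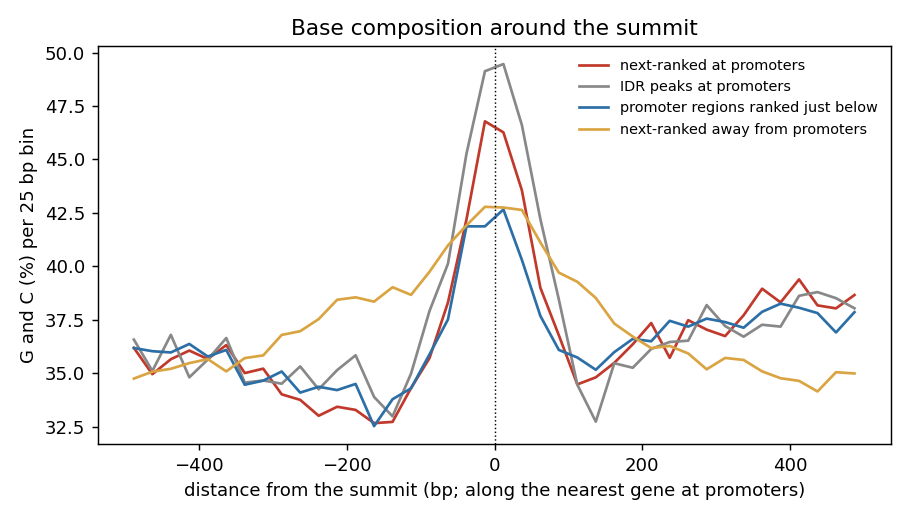
Percent G and C in bins of 25 bp against distance from the summit (bp) for the next-ranked promoter regions (red), IDR peaks at promoters (grey), promoter regions ranked just below (blue) and next-ranked regions away from promoters (yellow). The red curve reaches 46.8% at the summit, between the 49.5% of the IDR peaks and the 42.7% of the regions ranked just below.

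Short sequences holding CG had the largest ratios to the lower-ranked promoter regions. Of 2080 sequences of 6 bases, each counted with its reverse complement within 50 bp of the summit, 544 occurred in at least 5% of the regions. Of these, 191 were at least 1.5 times as frequent as in all 4531 lower-ranked promoter regions, and 126 of the 191 contain CG (66.0%, against 31.6% of the 544). Another 22 were at most 0.667 times as frequent, and none of them contains CG. These counts were not adjusted for base composition. The same windows held 44.7% G and C in the 543 and 38.2% in all lower-ranked promoter regions, and the part of this difference was not tested. The ratio was largest for CGCGTC, in 10.7% of the regions against 2.52%. Then came ACGCGG with 7.37% against 1.88%, ACGCGC with 16.9% against 4.52%, AGCGCG with 11.8% against 3.16% and GCGGAC with 6.26% against 1.72%. The first 4 share the letters CGCG on one strand or the other, so their counts overlap. In the promoter regions ranked just below the same 5 were in 4.24, 3.50, 8.84, 6.08 and 3.31% of regions. Each of these shares was below that of the 543 and nearer to that of all lower-ranked promoter regions. At IDR peaks at promoters they were in 9.63, 6.21, 16.8, 13.7 and 4.35% of peaks, and in the next-ranked regions away from promoters in 3.77, 3.48, 4.37, 4.17 and 2.28%. In the sequences shown above, nhr-47, F09G2.2 and epc-1 hold CGCGTC, and dpy-23 holds its reverse complement. Both trap-2 and nhr-47 hold ACGCGC, and trap-2 also holds the reverse complement of AGCGCG.

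Among the 6 sequences listed first, GAGAGA was in 16.8% of the regions within 50 bp, against 10.7% of all lower-ranked promoter regions, 15.3% of those ranked just below, 15.4% of next-ranked regions elsewhere and 17.1% of IDR peaks at promoters. The E box CACGTG was in 4.42% of the regions, 2.18% of all lower-ranked and 2.21% of those just below. It was in 2.80% of the IDR group and 3.77% of next-ranked regions elsewhere. In the same order the shares of CGGCCA were 5.89, 2.69, 3.68, 12.7 and 4.27%. For TATAAA they were 6.08, 10.5, 7.00, 5.90 and 5.76%, and for GATAAG 2.58, 5.39, 5.52, 2.80 and 3.87%. Within 100 bp the shares of CACGTG were 6.08, 4.08, 4.05, 4.97 and 6.06%, again in this order. The B box letters GTTCGANNC were in 5 of 543 regions (0.921%) within 50 bp and in 9 within 100 bp (1.66%). Within 100 bp they were in 15.8% of IDR peaks at promoters and 9.53% of next-ranked regions away from promoters. A match describes letters in these windows and does not show that a factor binds there.

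The rule gave partly different regions when each replicate was ranked by itself. Replicate 1 gave 370 promoter regions at 409 genes and replicate 3 gave 476 at 572 genes. Of these regions, 99 matched within 100 bp between the replicates, 26.8% of those of replicate 1 and 20.8% of those of replicate 3. Of the 543 pooled regions 142 (26.2%) matched a region chosen in replicate 1 and 360 (66.3%) one chosen in replicate 3. By gene, 205 of the 654 (31.3%) were also chosen in replicate 1, 467 (71.4%) in replicate 3 and 136 (20.8%) in both. Among the 136 were elmd-1, scpr-1 with gpap-1, trap-2 with ile-2, epc-1, famh-136, bcat-1, rpac-19, unc-112, aco-2, eef-1B.1, mrps-7, mpc-2 and gsp-2. A gene can be chosen through summits at different places in its window, as bcat-1 and rpac-19 were, whose pooled summits had none within 100 bp in replicate 1.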

How the data were processed

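The data were lists of regions from 2 biological replicates, numbered 1 and 3, of 1 group. The deposited files are described as lists in ce11 and ce10. Per these descriptions the authors made ranked lists of peaks and background against a control for each replicate and for both pooled, and passed them to IDR. Caller, aligner and threshold are not given in the sources used here. The deposited signal value of each region has no stated normalisation, and the deposited −log10 q-value was used as description. The ce10 lists were not used here. Depth is unknown, so no interval rests on reads.

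Summits were taken 1-based in ce11, which is WBcel235, and genes and sequence from RefSeq. A region was found in a replicate where that list had a summit within 100 bp, and the one of highest signal gave its values. All results are counts, shares with Wilson intervals at the 95% level and medians, and no significance test was made, since the ranking chose the regions. The regions and gene lists were chosen with earlier results of these data known. Named were the 20 regions of highest signal, the 10 with the best worse rank in the replicates, up to 4 regions of each list by signal, 4 on each side of the limit and 5 sequences of 6 bases. Further genes of a list, and other genes said to be so, were named with their values known. The rule and the matching were checked on planted regions. The tools were matplotlib 3.10.9, scipy 1.17.1 for medians' intervals, pandas 2.3.3 and numpy 2.4.6, under Python 3.11.15.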

Additional observations from a re-analysis of the deposited data

How the results depend on the processing

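Of 68 recomputed values, 38 stayed within the counting interval of the value reported or, for counts, within 1.5 times of it, and 30 moved. No paired analysis was possible because there is 1 group. With the window from 200 bp upstream there were 316 regions (20.4% of the next-ranked) at 339 genes, and from 1000 bp the share was 43.9%. Taking 0.5 times as many regions from the top gave 275 at 340 genes, found in replicate 1 for 81.1%, in replicate 3 for 98.5% and in both for 80.0%, and 2 times as many gave 1046 at 1224 genes with 65.0, 93.6 and 60.9%. The share at promoters was 37.5% with regions kept 500 bp from IDR summits, 37.6% with none overlapping an IDR region and 38.2% with 1 summit per merged site. It ran from 23.9 to 30.7% over the lists of single replicates, which gave 370 to 476 regions at 409 to 572 genes, with the fewest without replicate 3. Replicate support changed with the distance allowed: within 25 bp it was 28.0% in replicate 1, 61.3% in replicate 3 and 18.2% in both, within 250 bp 89.5, 99.8 and 89.3%, and among the 5000 highest regions of each list 48.1, 93.6 and 44.6%. Within 100 bp of the summit the G and C share was 41.0%. Where the window was kept, median positions over these lists and settings ran from -174 to -156.5 bp, all inside the interval reported. For the windows from 200 and 1000 bp upstream, which bound the position differently, no median was computed. The cause of these shifts was not tested. Read depth is unknown, so absence from a list does not show absence of binding.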
